A study of Mus musculus with 32 samples.

Results

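The renin-angiotensin genes described here are Agt, Ace, Agtr1a, Agtr2 and Mme, and they were found as the array probes that carry one of these 5 gene names. They are 5 of the 35715 gene names on the array, read by 6 of its 55681 mouse probes, 1 for each gene and a second for Mme. RNA of whole lungs from 32 wild-type C57Bl/6J mouse pups was hybridised to 32 one-colour arrays, 4 mice in each of 8 groups. Lungs were taken at postnatal day 5 (P5) or 14 (P14), from pups that had breathed 21% O2 or 85% O2 and had received an antimiR against miR-34a (antimiR-34a) or a scrambled antimiR (scrambled). The sample titles give these ages, and the protocol recorded for the samples puts each age less than a day later. An antimiR is a modified antisense oligonucleotide that binds a microRNA and blocks it, and prolonged hyperoxia of newborn mice, which arrests the formation of alveoli, is a model of bronchopulmonary dysplasia. All 32 mice shared strain and genotype, every group received an oligonucleotide by injection into the abdomen, and no untreated mice are among these arrays.

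The renin-angiotensin system makes peptide hormones by stepwise cleavage. Angiotensinogen (Agt), secreted mainly by the liver and in smaller amounts by fat and other tissues, is cut by renin to angiotensin I, which angiotensin-converting enzyme (Ace), a peptidase on the surface of lung capillary endothelium, turns into the vasoconstrictor angiotensin II. Angiotensin II acts through the type 1 receptor (Agtr1a and, in rodents, its near-identical paralog Agtr1b) and the type 2 receptor (Agtr2), which is abundant in the fetus and declines after birth. Neprilysin (Mme) is a membrane peptidase that degrades angiotensin I, bradykinin and natriuretic peptides, and Ace also degrades bradykinin.

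The sequences that define what was measured and manipulated come first. The antimiR targets miR-34a-5p, whose mature sequence from RefSeq (GRCm38.p6, chr4:150068473-150068494, plus strand) is shown with its seed, bases 2 to 8, in capitals.
mmu-miR-34a-5p: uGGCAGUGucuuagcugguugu
None of the 6 member probes holds the reverse complement of that seed, which 0.449% of the 55681 probes hold. Probes cover a small part of a transcript, so that says nothing about the rest of it. The Agt level rests on 1 probe of 60 bases, which the array files place on the minus strand of mm9 at chr8:127083142-127083201.
A_66_P112356: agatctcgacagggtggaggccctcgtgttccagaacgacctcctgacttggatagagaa
The files place the other probes on the plus strand of mm9, Ace at chr11:105850398-105850457, Agtr1a at chr13:30474638-30474697 and Agtr2 at chrX:21065564-21065623. The Mme probe used for its level lies at chr3:63184793-63184852 and the second at chr3:63185750-63185809. No mm9 annotation was used here, so exons and introns are not assigned.

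Because Agt and Ace were called in the same direction with age and with oxygen at P14 and Agtr2 was not, the 250 bases before their RefSeq transcription starts (GRCm38.p6) are shown, read 5′ to 3′ towards the start. Capitals mark a match on either strand to the TATA box (TATAAA), to the CCAAT box, or to the GC box, searched as GGGCGG. Adjoining matches run together, and the Ace window is that of the first of its 2 starts. Agt lies at chr8:124569707-124569956 (minus strand), Ace at chr11:105967698-105967947 and Agtr2 at chrX:21484374-21484623 (both plus strand).
Agt: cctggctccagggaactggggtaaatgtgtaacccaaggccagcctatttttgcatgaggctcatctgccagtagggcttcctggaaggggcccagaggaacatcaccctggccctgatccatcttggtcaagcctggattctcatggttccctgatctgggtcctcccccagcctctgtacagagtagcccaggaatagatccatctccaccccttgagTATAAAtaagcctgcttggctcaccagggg
Ace: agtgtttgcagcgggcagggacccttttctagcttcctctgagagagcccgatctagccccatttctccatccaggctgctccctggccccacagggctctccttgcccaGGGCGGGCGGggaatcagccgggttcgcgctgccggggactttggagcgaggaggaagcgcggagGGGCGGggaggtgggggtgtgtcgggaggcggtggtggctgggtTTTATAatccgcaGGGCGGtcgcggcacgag
Agtr2: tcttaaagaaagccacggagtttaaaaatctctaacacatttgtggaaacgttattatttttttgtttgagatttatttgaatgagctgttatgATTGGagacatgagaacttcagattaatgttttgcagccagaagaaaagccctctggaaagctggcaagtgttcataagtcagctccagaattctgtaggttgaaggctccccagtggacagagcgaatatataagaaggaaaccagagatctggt
TATAAA began 30 bases before the Agt start and, on the other strand, 31 bases before the Ace start, and 12.4% of all 32851 upstream windows held it. The Ace window held GGGCGG 4 times, against at least once in 32.7% of windows, with 2 of the 4 overlapping. The window of the second Ace start held CCAAT once and TATAAA and GGGCGG 0 times. The Agtr2 window held CCAAT once, on the other strand, as did 33.8% of windows in either direction. Windows were found for 4 of the 5 genes, all but Agtr1a. Those for Mme held GGGCGG in each of its 3 and TATAAA in 0. A match is a string of letters and not a measured binding site.

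Each array's 75th percentile was subtracted from its log2 processed signals to give the levels, so 0 is the signal that 75% of mouse probes lie below, and 1 unit is a doubling. Between 33614 and 40786 probes per array were well above background. The 6 member probes were among them on all 32 arrays, except that Agtr2 was on 31, the missing one in the P14 group of 85% O2 with antimiR-34a. All 8 arrays of 1 age and oxygen level shared a slide and a scan, so oxygen and slide, and age and slide, cannot be told apart. The antimiR comparisons lay within a slide, with the scrambled arrays in the first row and those of antimiR-34a below them, so antimiR and row cannot be told apart. In RNA of a whole organ, fewer cells of a type and less RNA per cell cannot be told apart either.

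Markers of lung cells were present on every array, 10 of 10 endothelial genes and 10 of 10 pericyte genes being well above background on each. Single lungs also had high levels of markers of other tissues. The skeletal muscle list (7 of 8 genes measured) had a mean level of 2.16 in replicate 4 of the P5, 21% O2, scrambled group and between -2.69 and -1.68 in the other 3 mice. The liver list (4 of 8 genes measured) stood at 3.95 in replicate 3 of the P5, 85% O2, antimiR-34a group, against -3.22 to -0.90 in its group mates.

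**Figure D1:**
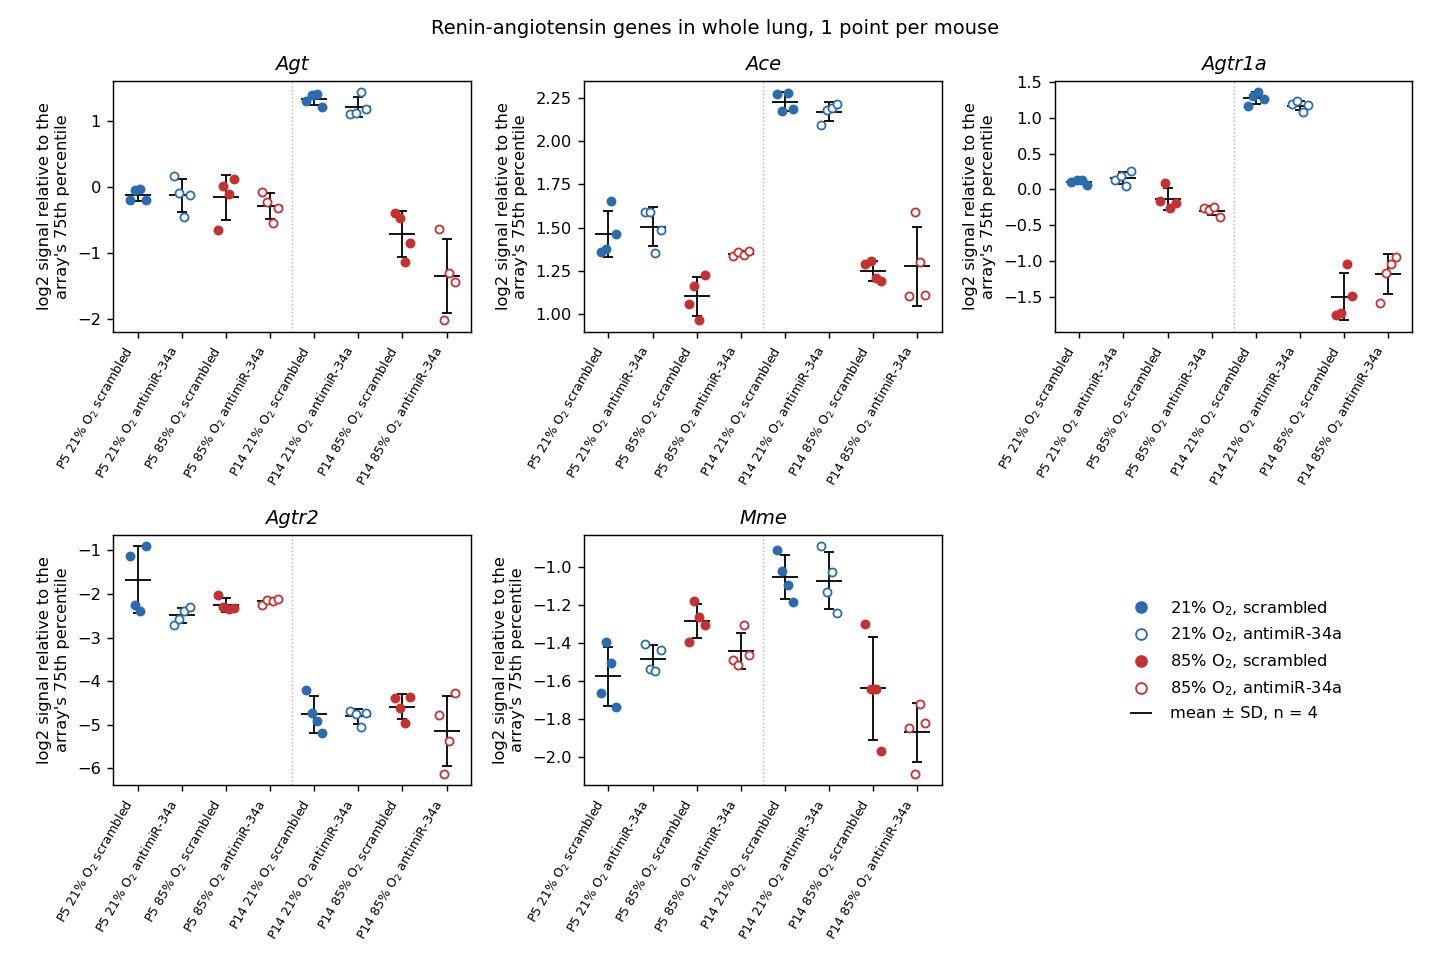
Level of each gene on its brightest tested probe in each of the 32 mice (points; horizontal bars with whiskers give mean ± SD, n = 4), on a vertical axis of log2 signal relative to the array's 75th percentile, by group on the horizontal axis. Agt, Ace and Agtr1a are highest in both P14 groups kept in 21% O2, and Agtr2 is higher in all 4 P5 groups than in all 4 P14 groups.

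In pups kept in 21% O2 with scrambled antimiR, 4 of the 5 genes were higher at P14 than at P5, and Agtr2 was much lower. Agt rose 2.73-fold, Agtr1a 2.25-fold, Ace 1.70-fold and Mme 1.44-fold, while Agtr2 fell 8.52-fold, a log2 difference of -3.09 that was -1.94 after background correction by the normexp method. All 5 passed the test (limma with Benjamini-Hochberg adjustment over all probes tested, adjusted p under 0.05 called), where 51.4% of all tested probes did so, 27.8% of all tested probes upwards, which is 54.2% of those that passed and 46.4% after quantile normalization. The count of 4 that rose is given beside that background as a description. Marker lists of cell types moved with age between the same groups. Of 14 lists, 8 were higher on every P14 array than on any P5 array and 3 were lower on every one. Among the first were adipocytes (-4.71 to -3.24 at P5 and -1.25 to 1.63 at P14, 7 of 8 genes measured), endothelium (2.60 to 2.83 and 2.99 to 3.104), pericytes (1.61 to 1.73 and 1.81 to 1.89) and matrix fibroblasts (1.79 to 1.90 and 2.31 to 2.41). The part of these lists in the differences was not tested.

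Agt, the hormone precursor, had levels of -0.21, -0.04, -0.04 and -0.20 in the 4 P5 lungs (mean -0.12 ± 0.09 SD). At P14 the 4 lungs read 1.30, 1.39, 1.41 and 1.20 (1.33 ± 0.10). The groups did not overlap, and the difference was 1.45 on the log2 scale (SE 0.20, limma adjusted p = 2.15e-06). For Ace, the converting enzyme, the P5 lungs stood at 1.36, 1.38, 1.65 and 1.46, and the P14 lungs at 2.27, 2.17, 2.28 and 2.19. Every P14 lung was above every P5 lung, by 0.77 on average (SE 0.08, limma adjusted p = 5.03e-08). The type 1 receptor gene Agtr1a had 0.10, 0.14, 0.13 and 0.07 at P5 and 1.17, 1.31, 1.35 and 1.26 at P14. Its groups were again apart, with a difference of 1.17 (SE 0.12, limma adjusted p = 1.93e-08).

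Agtr2 went the other way. In P5 lungs its levels were -1.13, -2.26, -2.39 and -0.90, a wide range in which replicates 1 and 4 were the high ones. At P14 they were -4.20, -4.74, -4.92 and -5.20. The groups stayed apart, and the difference of -3.09 (SE 0.30, limma adjusted p = 7.73e-09) was -2.83 without replicate 4, which had the high skeletal muscle markers. The muscle list stood at -1.68 in replicate 1, the other high mouse, and at -2.68 and -2.69 in both low mice. The heart muscle list (8 of 8 genes measured) split the same mice, at 3.44 and 3.28 in replicates 1 and 4 and at 1.75 and 1.31 in replicates 2 and 3. The adipocyte list stood at -3.24 and -3.66 in the first pair and at -4.16 and -4.71 in the second. The part of these lists in the Agtr2 level was not tested. Across all 8 groups, the 4 P5 means of Agtr2 ran from -2.49 to -1.67 and the 4 P14 means from -5.14 to -4.58, with no P14 lung reaching a P5 lung. Neighbouring groups within an age overlapped in their levels. This is the only one of the 5 genes whose 8 groups split by age alone.

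At P14, 4 of the 5 genes were lower in 85% O2 than in 21% O2 in mice that had received scrambled antimiR, Agtr1a 6.82-fold, Agt 4.13-fold, and Ace 1.97-fold, with Mme at a log2 difference of -0.58. In this comparison 60.8% of tested probes were called and 32.4% were called lower. With background corrected by the normexp method, 17.0% were called lower, and the same 4 genes were still called. Agtr2 did not pass, with a difference of 0.18 (SE 0.32, limma adjusted p = 0.64).

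With scrambled antimiR, Agtr1a showed the largest change of the 5 at P14. Its levels in 85% O2 were -1.75, -1.72, -1.04 and -1.49, against 1.17 to 1.35 in the 4 mice in 21% O2 listed above. The groups did not overlap, and the mean difference was -2.77 (SE 0.15, limma adjusted p = 8.44e-09). Agt in 85% O2 stood at -0.41, -0.48, -1.14 and -0.85, all below the lowest mouse in 21% O2, at 1.20. The difference was -2.05 (SE 0.23, limma adjusted p = 5.39e-06). The levels of Agt in 85% O2 at P14 were also below the P5 mean of -0.12.

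Ace fell less. Its levels in 85% O2 at P14 were 1.29, 1.30, 1.20 and 1.19, close to each other and all below the 4 lungs in 21% O2, which began at 2.17. The difference was -0.98 (SE 0.09, limma adjusted p = 1.12e-06). Mme was -1.30, -1.65, -1.64 and -1.97 in 85% O2 and -0.91, -1.02, -1.10 and -1.19 in 21% O2. The groups did not overlap, and the mean difference was -0.58 (SE 0.13, limma adjusted p = 0.00135). The second Mme probe, which the array assigns to another transcript record, fell by 0.86 on the log2 scale (SE 0.15, limma adjusted p = 0.000193).

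The 4 differences were of unlike size, and the median difference over all tested probes in this comparison was -0.06.

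The comparison of oxygen at P14 in mice given antimiR-34a gave the same 4 calls, where 65.6% of tested probes were called and 37.8% were called lower, or 22.1% after normexp correction. Agt stood at -0.64, -2.02, -1.30 and -1.44 in 85% O2 and at 1.10, 1.11, 1.43 and 1.18 in 21% O2, a 5.88-fold difference (-2.56, SE 0.23, limma adjusted p = 6.94e-07). Agtr1a stood at -1.58, -1.16, -1.04 and -0.94 against 1.20, 1.23, 1.07 and 1.18, a 5.11-fold difference (-2.35, SE 0.15, limma adjusted p = 3.84e-08). In both genes every lung in 85% O2 was below every lung in 21% O2. Ace differed by -0.90 (SE 0.09, limma adjusted p = 2.27e-06), and Mme differed by -0.80 (SE 0.13, limma adjusted p = 9.81e-05). Agtr2 differed by -0.33 (SE 0.32, limma adjusted p = 0.38), with 1 of the 4 lungs in 85% O2 not well above background.

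**Figure D2:**
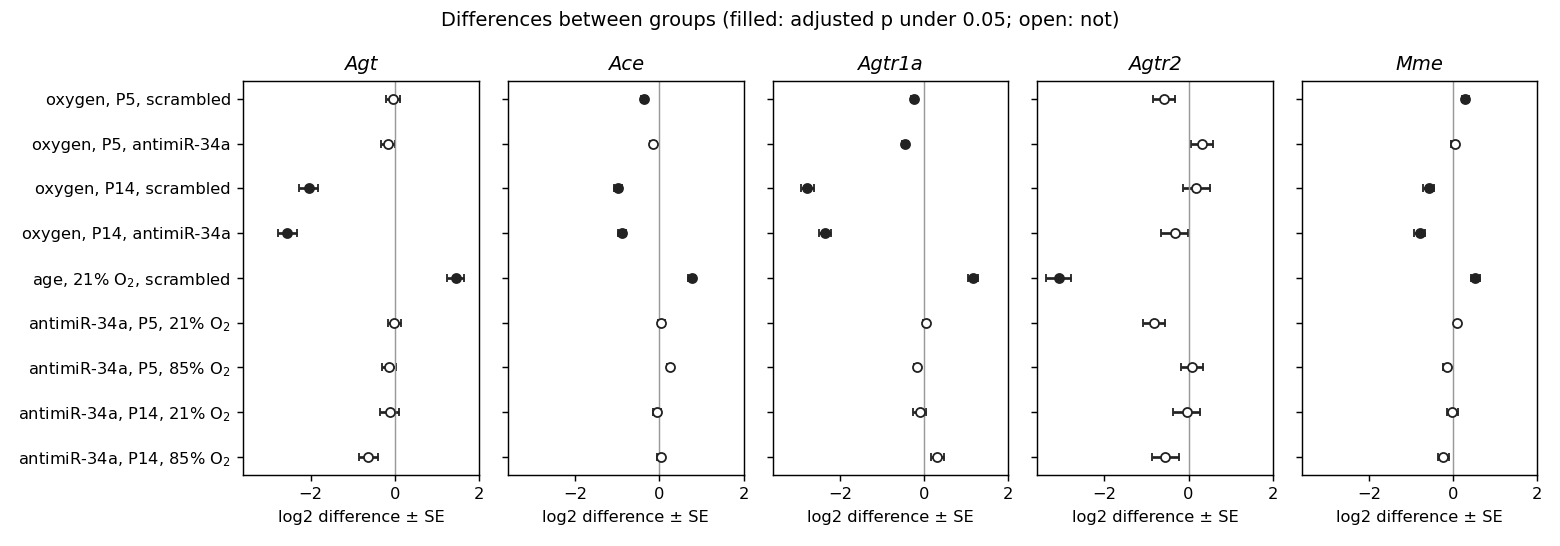
Difference between groups for each gene on the horizontal axis (log2 units, points with bars of 1 SE), for 9 comparisons on the vertical axis; oxygen is 85% minus 21% O2, age is P14 minus P5 and antimiR-34a is against scrambled. Filled points passed the adjusted p threshold of 0.05, as did 4 of 5 genes in both P14 oxygen comparisons and 0 of 5 in the 4 antimiR comparisons.

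Marker lists of other cell types and tissues also moved with oxygen at P14. With scrambled antimiR, 10 of 14 lists were lower on every array in 85% O2 than on any in 21% O2, namely endothelium, pericytes, type II pneumocytes, matrix fibroblasts, myofibroblasts, adipocytes, liver, skeletal muscle, heart muscle and thymus. The type I pneumocyte and mast cell lists were higher on every one. With antimiR-34a 7 lists were lower in this way, the same but for type II pneumocytes, myofibroblasts and heart muscle, and the mast cell list was higher. The adipocyte list (7 of 8 genes measured, Lep being dim) averaged -1.39 to 2.34 over the 8 lungs in 21% O2 and -5.95 to -5.39 in 7 of 8 in 85% O2, the 8th, replicate 4 of the antimiR-34a group, at -1.75. Of its genes, Adipoq, Cfd, Car3 and Cidec were well above background in 4 of 4 lungs of each 21% O2 group. In 85% O2 with scrambled antimiR they were so in 0 of 4. Plin1 and Cidea were well above background in 4 of 4 lungs of every group, and Retn in 2 of 4 in 85% O2 with scrambled antimiR. On the arrays of that group 2 to 3 of the 7 measured genes were well above background, so the list mean there is partly background signal. Replicate 4 of the 85% O2, antimiR-34a group had an Agt level of -1.44, between those of its group mates, and replicate 1 of the 21% O2, scrambled group, whose adipocyte list was the highest of its group at 1.63, had an Agt level of 1.30, also between its mates. The liver list, of the tissue that is the main source of angiotensinogen, ranged from -2.58 to 0.41 in 21% O2 and from -3.75 to -3.36 in 85% O2 with scrambled antimiR. With antimiR-34a it ranged from -2.33 to -0.76 and from -3.73 to -2.37. The matrix fibroblast list (10 of 10 genes measured) ranged over both antimiRs from 2.173 to 2.412 in 21% O2 and from 1.93 to 2.169 in 85% O2. Skeletal muscle ranged from -2.63 to -1.13 and from -3.93 to -2.68, and thymus (8 of 8 genes measured) from -3.41 to -1.87 and from -5.15 to -4.19. The part of these lists in the level of Agt or of the other members was not tested.

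The endothelial list, which is relevant to Ace, ranged at P14 from 2.99 to 3.104 in 21% O2 and from 2.82 to 2.94 in 85% O2 with scrambled antimiR, and from 2.93 to 3.00 and from 2.83 to 2.89 with antimiR-34a. The pericyte list, relevant to Agtr1a, ranged over both antimiRs from 1.81 to 1.89 in 21% O2 and from 1.37 to 1.77 in 85% O2. Both lists were lower in 85% O2 without overlap in each comparison, and their part in the differences was not tested.

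**Figure D3:**
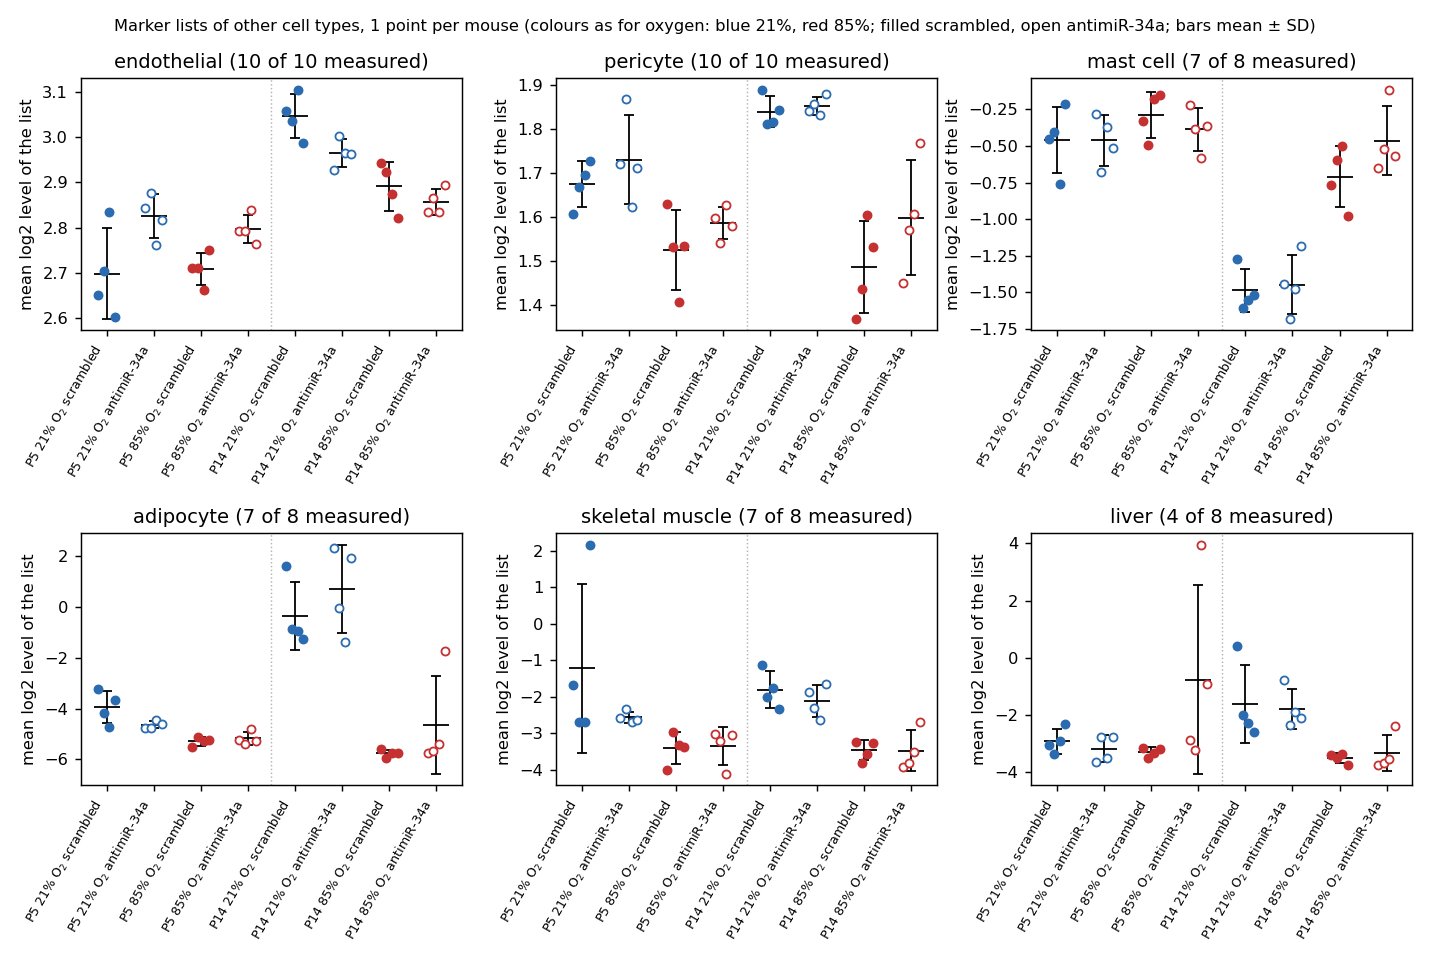
Mean log2 level of 6 marker lists (vertical axes) in each of the 32 mice, by group on the horizontal axes (bars: mean ± SD, n = 4). The adipocyte list is high in the P14 groups in 21% O2 (-1.39 to 2.34), and single mice stand apart for skeletal muscle (2.16) and liver (3.95).

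At P5, oxygen differences were small. With scrambled antimiR, 3 of the 5 genes were called, where 43.9% of all tested probes were. The methods' t-test, with unequal variances and Benjamini-Hochberg adjustment, called 1 of the 5, Ace. Of the 14 marker lists, 3 were lower on every P5 array in 85% O2 than on any in 21% O2 over both antimiRs and 1 was higher, and within scrambled antimiR the heart muscle list was lower too. Myofibroblasts ranged from 3.31 to 3.57 in 85% O2 and from 3.86 to 4.11 in 21% O2, adipocytes from -5.51 to -4.78 and from -4.75 to -3.24, skeletal muscle from -4.11 to -2.96 and from -2.69 to 2.16, and type I pneumocytes, the list that was higher, from 4.17 to 4.31 and from 3.62 to 3.94. The part of these lists in the differences at P5 was not tested. Ace read 1.06, 1.16, 0.96 and 1.22 in 85% O2, all below the 4 mice in 21% O2, a 1.29-fold difference (-0.36, SE 0.08, limma adjusted p = 0.00211). Agtr1a read -0.16, 0.09, -0.27 and -0.19 in 85% O2, of which 1 lay inside the range of the 21% O2 group, and differed by -0.24 (SE 0.07, limma adjusted p = 0.0178). Without replicate 3 of the 85% O2 group the adjusted p of Agtr1a was 0.063, and in a limma fit of the compared groups alone it was 0.052.

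Mme went up at P5 on its brighter probe, from -1.66, -1.40, -1.51 and -1.74 to -1.39, -1.18, -1.26 and -1.31 (0.29, SE 0.08, limma adjusted p = 0.00882). The second Mme probe did not show it, at -0.02 (SE 0.08, limma adjusted p = 0.89), the mean of both probes gave an adjusted p of 0.12, and normexp correction one of 0.055. Agt stood at -0.66, 0.01, -0.11 and 0.11 in 85% O2, around the range of the 21% O2 group, and differed by -0.04 (SE 0.16, limma adjusted p = 0.85). Agtr2 stood at -2.02, -2.30, -2.35 and -2.33, and differed from the widely spread 21% O2 group by -0.58 (SE 0.26, limma adjusted p = 0.089). Leaving out replicate 2 or 3 of that 21% O2 group gave adjusted p of 0.030 or 0.016, and leaving out replicate 4 a difference of -0.32.

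With antimiR-34a, 1 of the 5 genes was called at P5, against 46.6% of all tested probes. Agtr1a read -0.26, -0.29, -0.25 and -0.39 in 85% O2 and 0.14, 0.19, 0.05 and 0.26 in 21% O2. The groups did not overlap (-0.45, SE 0.07, limma adjusted p = 0.000196). The lung with high liver markers had an Agt level of -0.55, the lowest of its group, and the part of liver RNA in it was not tested.

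The test of the oxygen difference at P14 against that at P5 called Agt, Ace, Agtr1a and Mme with both antimiRs, 4 of 5 genes each time, where 40.8% of tested probes were called with scrambled antimiR and 43% with antimiR-34a. With scrambled antimiR the 4 oxygen differences were lower at P14, by a difference of -2.004 for Agt, -0.62 for Ace, -2.53 for Agtr1a and -0.88 for Mme on the log2 scale. Limma adjusted p was 7.79e-06, 0.00021, 1.09e-10 and 6.44e-05 in that order. For Agtr2 this test gave 0.76 (SE 0.43, limma adjusted p = 0.16). The 2 ages lay on different slides.

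Ordered by mean level over the 8 groups, Agt, Ace and Agtr1a each had the P14 groups in 21% O2 in the first 2 places, scrambled above antimiR-34a with overlapping levels, and a gap without overlap below them. That gap was 1.33 for Agt, 0.67 for Ace and 1.01 for Agtr1a. Below it, neighbouring groups overlapped throughout for Agt and Ace. Agtr1a had a second gap of 0.89, below which came both P14 groups in 85% O2. For Mme every pair of neighbouring groups overlapped, from -1.06 in the P14, 21% O2, scrambled group to -1.87 in the P14, 85% O2, antimiR-34a group.

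The antimiR comparisons called 0 of the 5 genes in all 4 settings. The share of tested probes called was 0.136% at P5 in 21% O2, 0.0639% at P5 in 85% O2, 0% at P14 in 21% O2 and 2.66% at P14 in 85% O2. At an unadjusted p under 0.05, limma counted 1, 2, 0 and 1 of the 5 genes in that order. The methods' t-test called 0 in each.

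Those 4 were as follows. Agtr2 at P5 in 21% O2 read -2.70, -2.56, -2.39 and -2.31 with antimiR-34a, overlapping the scrambled group, and differed by -0.82 (SE 0.26, limma adjusted p = 0.17). Without replicate 4 of the scrambled group the difference was -0.56. Ace at P5 in 85% O2 read 1.33, 1.36, 1.34 and 1.36 with antimiR-34a, above all 4 scrambled mice, and differed by 0.25 (SE 0.08, limma adjusted p = 0.23). Agtr1a in the same comparison differed by -0.16 (SE 0.07, limma adjusted p = 0.37). Agt at P14 in 85% O2 differed by -0.63 (SE 0.23, limma adjusted p = 0.17), and by -0.87 with an adjusted p of 0.035 when replicate 1 of the antimiR-34a group was left out. Without replicate 2 of that group it was -0.41 (limma adjusted p = 0.30). The antimiR-34a and scrambled mice of that comparison overlapped.

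The oxygen difference with antimiR-34a minus that with scrambled was called for 0 of the 5 genes at both ages, where 0.0556% of tested probes were called at P5 and 0.0884% at P14. At an unadjusted p under 0.05, limma counted 2 genes at P5, Agtr2 (0.90, SE 0.37, adjusted p = 0.40) and Mme (-0.25, SE 0.11, adjusted p = 0.44), and 0 at P14. At P14 the largest such values were those of Agt, at -0.51 (SE 0.32, limma adjusted p = 0.46), and Agtr2, also at -0.51 (SE 0.45, limma adjusted p = 0.60). Without replicate 2 of the 85% O2, antimiR-34a group they were -0.29 and -0.18.

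Other genes of the pathway were read from a list of 25, of which 23 were tested at P14 and 22 at P5. At P14 with scrambled antimiR, 14 were higher in 85% O2 and 5 lower, where 28.4% of all tested probes were called higher and 32.4% lower. After normexp correction 14 were higher and 3 lower. The median difference over the 23 was 0.41, against -0.06 over all tested probes. The 6 largest increases were those of Mcpt4 by 3.19 and Cma1 by 2.93, both mast cell chymases, Cpa3, mast cell carboxypeptidase, by 2.12, Ctsg, cathepsin G, by 1.82, Zbtb16, a transcription factor that binds the renin receptor, by 1.76 (SE 0.59), and Ctsd, cathepsin D, by 1.16. Those values are log2 differences. Also up was Agtrap, which binds the type 1 receptor and promotes its uptake into the cell (0.61).

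The 5 that fell were Klk1, tissue kallikrein (-1.97), Enpep, which cleaves angiotensin II to angiotensin III (-1.54), the probe named Ren2 (-0.66), Prcp, a carboxypeptidase that also cleaves angiotensin II (-0.42), and Anpep, aminopeptidase N (-0.37). Klk1 was well above background in 4 of 4 lungs in 21% O2 and in 1 of 4 in 85% O2. Renin itself, read by Ren1, was between -5.23 and -4.56 in 21% O2 and between -5.03 and -4.61 in 85% O2 at P14, and differed by 0.06 (SE 0.22, limma adjusted p = 0.84). C57Bl/6 mice carry Ren1 and lack the Ren2 gene, so the signal of the probe named Ren2 cannot be read as that gene. Ren1 and Ren2 are near-identical in sequence, as are Agtr1a and Agtr1b, and signal may be shared between the probes of each pair. Agtr1b differed by -0.32 at P14 (SE 0.20, limma adjusted p = 0.18), so the Agtr1a probe and the Agtr1b probe did not give the same value. Mas1 and Mrgprd, receptors for the shorter angiotensins, were too dim to be tested.

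Cma1, Mcpt4 and Cpa3 are also 3 of the 8 genes of the mast cell list. That list (7 measured) averaged -1.68 to -1.19 over the 8 lungs in 21% O2 at P14 and -0.98 to -0.12 in 85% O2. The part of mast cell number in the difference of these 3 genes was not tested. With antimiR-34a at P14, 15 of the 23 pathway genes were higher in 85% O2 and 4 lower, where 27.8% of all tested probes were called higher and 37.8% lower. Among them were Cma1 at 3.40, Mcpt4 at 3.19, Ctsg at 2.60 and Enpep at -1.58. Klk1 was not well above background in any of the 4 lungs in 85% O2, and was at least 3.93-fold higher in 21% O2 (limma adjusted p = 8.57e-06). At P14 Klk1 was tested only through the 21% O2 groups, where it was high. The p used the measured signals of the dim lungs, so the call is no independent support. At P5 6 of 22 were higher in 85% O2 with scrambled antimiR and 4 lower, a share called close to the 43.9% of all tested probes, with Cma1 at 1.19 and Cpa3 at 0.84 upwards and the probe named Ren2 at -0.76 and Prcp at -0.63 downwards. Between P5 and P14 in 21% O2, 4 of 23 rose and 7 fell, beside 51.4% of all tested probes called. Mcpt4 fell by 2.94 and Cma1 by 1.48, while Anpep rose by 0.78. The mast cell list was lower at P14 as well, at -1.61 to -1.27 against -0.76 to -0.21, and its part in the fall of Mcpt4 and Cma1 was not tested. In the 4 antimiR comparisons 0 of the pathway genes were called.

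**Figure D4:**
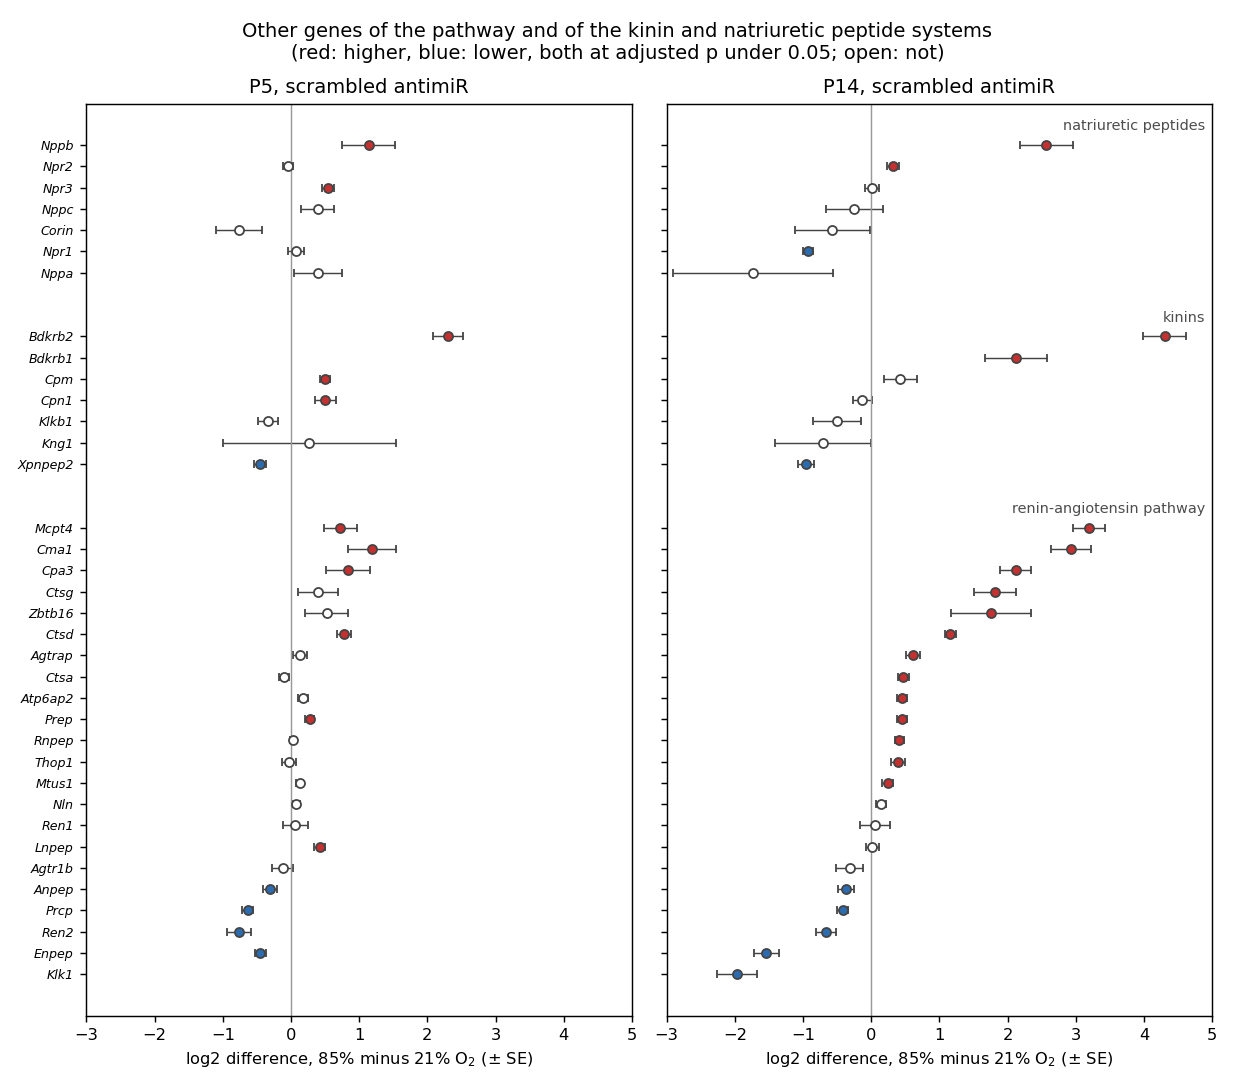
Log2 difference between 85% O2 and 21% O2 (horizontal axis, points with bars of 1 SE) for tested genes of 3 lists (vertical axis; 1 pathway gene is not drawn), at P5 on the left and P14 on the right, scrambled antimiR. Bdkrb2 is the rightmost point at both ages, with the mast cell peptidases Mcpt4 and Cma1 next at P14, and Klk1 and Enpep lie to the left. At P14 the Bdkrb2 point is the fitted value, with the gene not well above background in 21% O2.

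Kinins and natriuretic peptides are substrates of Ace and Mme, and their genes were read from lists of 9 and 7. The bradykinin receptors rose. Bdkrb2, the constitutive type 2 receptor, was not well above background in any of the 4 lungs in 21% O2 with scrambled antimiR at P14, and in 85% O2 had a mean of -2.71 ± 0.15 (SD, n = 4), at least 12.6-fold higher (limma adjusted p = 1.3e-07). The bound sets the dim group at the lowest signal still well above background on each array. At P14 Bdkrb2 was tested only through the 85% O2 groups, where it was high. The p used the measured signals of the dim lungs, so the call is no independent support. With antimiR-34a the same comparison gave at least 7.402-fold (limma adjusted p = 2.59e-07). At P5 Bdkrb2 was higher in 85% O2 by 2.30 (SE 0.22, limma adjusted p = 2.43e-06), where 1 of the 4 lungs in 21% O2 was well above background. Of the 7 kinin genes tested at P5 with scrambled antimiR, 3 were higher and 2 lower, beside 43.9% of all tested probes called. Cpn2, lower, was not well above background in any of the 4 lungs in 85% O2. It was at least 2.51-fold higher in 21% O2, the only groups through which it was tested. Xpnpep2, also lower, had means of -2.025 in 85% O2 and -1.569 in 21% O2. Bdkrb1, the inducible type 1 receptor, was higher at P14 by 2.12 (SE 0.46, limma adjusted p = 0.00121).

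Of the 7 kinin genes tested at P14 with scrambled antimiR, where 60.8% of all tested probes were called, 2 were higher and 1 lower, Xpnpep2, a peptidase that degrades bradykinin, at -0.95. Among the 7 natriuretic peptide genes 2 were higher and 1 lower, so that in both lists fewer were called than not. Nppb, which encodes B-type natriuretic peptide, was higher by 2.57 (SE 0.39, limma adjusted p = 7.42e-05). Nppa, which encodes the A type, had means of -2.75 ± 0.55 in 85% O2 and -1.02 ± 0.71 in 21% O2 and was not called (limma adjusted p = 0.22). The heart muscle list ranged from 0.53 to 1.86 in 85% O2 and from 2.49 to 3.46 in 21% O2, and its part in these values was not tested. Npr1, the receptor for the A and B types, was lower, at -0.92 (SE 0.07, limma adjusted p = 2.59e-07). Npr2, the receptor of the C type, was higher by 0.32. In the antimiR comparisons 1 gene of these lists was called, in the kinin list at P5 in 21% O2, where 0.136% of all tested probes were called. It was Bdkrb2, with a mean of -5.16 ± 0.36 with antimiR-34a, well above background in 4 of 4 lungs, and of -6.45 ± 0.41 with scrambled antimiR, well above background in 1 of 4.

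Over the 32 arrays, Pearson's r among Agt, Ace, Agtr1a and Mme ran from 0.63, between Ace and Mme, to 0.87, between Agt and Agtr1a. With Agtr2 it was -0.45 for Ace, -0.11 for Agt, -0.05 for Mme and 0.01 for Agtr1a. These are descriptions over arrays that share groups, slides and normalization. The genes whose pattern was most like Agt were Cacnb2 (r = 0.95), Crabp1, Antxr1 and Col10a1. For Ace they were B930025P03Rik (0.96), Atp1b3, Lrrn2 and Slc5a12, and for Agtr1a Gucy1b3 (0.97), Mcf2l, Ear1 and Myzap. Agtr2 was most like Idh2 (0.94), Col26a1, Meg3 and LOC102642336. Mme had the least close neighbours, Col23a1 (0.89), Dock10, a transcript named ENSMUST00000103426 and Crbn.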

How the data were processed

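Total RNA of lungs perfused with PBS was labelled with Cy3 and hybridised to Agilent SurePrint G3 mouse arrays. Per the file headers and labels, the authors extracted spot intensity with Agilent Feature Extraction 10.7.3.1, and the processed signal used here is already background-corrected by that program. The series' value table, deposited by the authors, holds log2 values that correlated with the processed signals at r of 0.997 or more on every array, with column medians between 6.00 and 6.01, so its scale is log2, its arrays are aligned and its exact normalization is not given in the sources used here. It served as an alternative.

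Control spots and outlier spots were left out, repeated spots of a probe were averaged, and log2 of the processed signal was centred on the 75th percentile of each array. A probe was tested when every array of 1 or more of the fitted groups had it well above background, with limma 3.58.1 (R 4.3.3), with the 16 arrays of an age in 1 fit and all 32 for age comparisons. A gene was read from the tested probe with the highest mean. Benjamini-Hochberg adjustment ran over all tested probes. The steps were tested on simulated data. Labels give 4 separate samples per group. Limma p-values rest on the spread between samples within groups, pooled over all groups of the fit and moderated over probes, and not on the compared groups alone. Replicate numbers were not taken to pair the mice: same-numbered deviations correlated between -0.31 and 0.53, and differently numbered ones between -0.79 and 0.71. The number of arrays limits the precision.

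The 5 genes and the lists of related genes were chosen with earlier results of these data known, and no list count is independent support. Named were all members and, for oxygen at P14 with scrambled antimiR, at most 8 called genes of a list with the largest differences and any that went the other way. For the other comparisons only examples of the called genes are named. The study's methods used a t-test with unequal variances, which was run as an alternative. One gene of the pathway list was kept in the list counts and is not reported here by itself.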

Additional observations from a re-analysis of the deposited data

Results flagged for a closer look

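In 4 of the 48 groups of 4 mice examined for the 6 member probes, 1 mouse stood far from the rest, by a gap to the nearest mouse whose share of the group's range was past Dixon's critical value for 4 samples, and chance gives about 1 in 20. For Agtr2 these were replicate 1 of the P5, 85% O2, scrambled group (gap over range 0.852, level -2.02) and replicate 3 of the P14, 21% O2, antimiR-34a group (0.850, level -5.06). On the second Mme probe they were replicate 1 of the P14, 85% O2, scrambled group (0.845, level -1.34) and replicate 2 of the P14, 85% O2, antimiR-34a group (0.898, level -2.50).

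Among 112 groups examined for the 14 marker lists, 7 held such a mouse. The gap over range was 0.910 for the adipocyte list in replicate 4 of the P14, 85% O2, antimiR-34a group, 0.862 for the same list in replicate 1 of the P14, 21% O2, scrambled group and 0.853 for the liver list in replicate 4 of the P14, 85% O2, antimiR-34a group. It was 0.910 for matrix fibroblasts (P5, 85% O2, antimiR-34a, replicate 2), 0.897 and 0.903 for myofibroblasts (P5, 85% O2, scrambled replicate 1 and antimiR-34a replicate 3) and 0.946 for red blood cells (P14, 21% O2, antimiR-34a, replicate 2).

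The oxygen difference differed between P5 and P14 for 4 genes with each antimiR (limma, test of the difference). With scrambled antimiR the values were -2.004 for Agt, -0.62 for Ace, -2.53 for Agtr1a and -0.88 for Mme, and -0.85 on the second Mme probe. With antimiR-34a they were -2.39, -0.74, -1.90 and -0.84, and -1.09 on the second Mme probe. The 2 ages lay on different slides, so age and slide cannot be told apart.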

How the results depend on the processing

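Each comparison was recomputed with 9 to 11 other settings and with each array left out. In the other settings 236 of 241 called values of single genes stayed called in the same direction, and with 1 array left out 263 of 264. No called value changed sign, while 14 and 13 values that were not called did. The calls for oxygen at P14 and for age held in every setting that gave a value; Agtr2 has none for age where probes had to be well above background on every array. At P5 with scrambled antimiR the methods' t-test called 1 of the 5 genes in place of 3, and leaving out 1 array gave 2 to 4. At P5 with antimiR-34a, a fit of the compared groups alone called 2 in place of 1, the second being Agtr2 (0.32, adjusted p = 0.022). Leaving out 1 array gave 0 or 1 called gene for antimiR-34a at P14 in 85% O2. At P5 with scrambled antimiR, Agtr1a was not called in a fit of the compared groups alone (adjusted p = 0.052) and Mme was not after normexp (0.055). The cause of these changes was not tested. Agtr2 in the test of oxygen by age with scrambled antimiR was called after normexp correction (0.79, adjusted p = 0.022). The pathway list count at P5 with scrambled antimiR was 6 by the methods' t-test in place of 10.

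Counts over all probes moved more in the antimiR comparisons. The 49, 23, 0 and 1024 called probes ranged over settings from 1 to 912 at P5 in 21% O2, 0 to 4283 at P5 in 85% O2, 0 to 10123 at P14 in 21% O2 and 0 to 1155 at P14 in 85% O2. The 20 and 34 probes of the tests of oxygen by antimiR ranged from 4 to 62 and 0 to 5627. The highest counts came from array weights, a looser or a stricter filter. The share of called probes that were higher in 85% O2 with scrambled antimiR was 46.7% at P14 and 62.8% after normexp, which moved the median difference of all probes from -0.06 to 0.11, and 39.9% at P5 and 52.8% after quantile normalization. With antimiR-34a it was 42.4% at P14 and 55.99% after quantile normalization, and 36.8% and 49.1% at P5. For oxygen by age it was 56.3% and, after normexp, 67.6% with scrambled antimiR, and 51.9% and 62.3% with antimiR-34a. For age the share higher at P14 was 54.2% and, after quantile normalization, 46.4%. For the antimiR at P5 it was 85.7% and, after quantile normalization, 62.5% in 21% O2, and 69.6% and 50% in 85% O2.

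With the replicate number as a block, the 5 genes gave 3 and 4 calls for oxygen with scrambled antimiR at P5 and P14, 1 and 4 with antimiR-34a, and 0 in the antimiR comparisons, as without it. Same-numbered mice correlated over 0.1 in 3 of 24 pairs at P5 and 7 of 24 at P14, and differently numbered mice in 7 of 72 and 8 of 72. At P14 the share was thus higher among same-numbered pairs. Most same-numbered pairs stayed below 0.1, so the numbers were not taken to pair the mice. The replicate number is also the column of the array on its slide. Each group lay on 1 slide, so a slide term could not be added to the groups. The setting with slide as a block, in the antimiR comparisons and the tests of oxygen by antimiR, was therefore the main fit again. It is among the other settings counted above and says nothing about slide. The methods' t-test was not run for the tests of a difference between differences.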
